A study of Homo sapiens with 148 samples.

Results

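The RNA of human embryonic stem cells (hESCs) was compared with that of the pancreatic progenitor (PP) stage derived from them, gene by gene. Members were all genes with a mean of at least 10 TPM in hESCs or in PP, which gave 10088 of the 49085 gene names in the table. TPM values divide reads by transcript length and add up to 1000000 over all genes of a stage. Both groups were wild-type cells of H9, an established hESC line and the only line used here, and the labels list 2 RNA-seq replicates for each, among 12 RNA-seq samples and 148 samples in all. The hESCs were kept undifferentiated on a Geltrex matrix. The PP cells, described by the labels as differentiated in vitro, had grown as rotating spheroids through definitive endoderm (DE) and primitive gut tube (PGT) stages, with Activin A and CHIR99021 first, then KGF, and then KGF with Sant1, retinoic acid, LDN193189 and PdBU, with Y27632 added in several of these steps. DE, PGT and the SC-β organoids that follow PP serve here as further points on the path, as does a stage labelled PH that the study's text does not define. Each stage has 1 value per gene, the authors' mean over replicates, so no value below carries an error and no difference was tested.

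Pluripotent cells are held in that state by a network of transcription factors around POU5F1, NANOG and SOX2 and by signals of the Nodal and FGF families. On the path to the pancreas they pass through endoderm, a folded gut tube patterned by retinoic acid, hedgehog and BMP signals, and a progenitor epithelium marked by PDX1, SOX9 and NKX6-1 that can give rise to duct, acinar and endocrine cells. SOX2 is a factor that is used again after pluripotency, in the neural plate and in the stomach and oesophagus. A gene that is low in PGT and near its hESC level in PP has a different course from one that leaves the pluripotent level for good, although a comparison at the gut tube alone does not separate them.

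The hESC and PP columns held the markers of their labels to different degrees. In hESCs POU5F1 was at 1449 TPM, LIN28A at 724, SOX2 at 133 and NANOG at 44.6. In PP, SOX9 was at 23.7 TPM, ONECUT1 at 20.6 and FOXA2 at 13.2, whereas PDX1 was at 3.17, NKX6-1 at 2.2 and PTF1A at 1.02 TPM, each below the level required of a member. Structural small RNAs (7SK, signal recognition particle RNA, U snRNAs and similar) took 43.0% of all TPM in hESCs, 44.2% in PGT and 49.4% in PP, which lowers the values of all other genes by amounts that differ between stages. Both a RiboMinus removal of ribosomal RNA and a TruSeq mRNA kit are named in the labels. RNA from a whole spheroid does not tell fewer cells of a type from less RNA per cell.

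Of the 10088 genes, 7262 reached 10 TPM in both columns, 900 in hESCs alone and 1926 in PP alone. On the log2((TPM + 1) / (TPM + 1)) scale used throughout, 1640 genes were at least 2-fold higher in PP (16.3%), 1085 were at least 2-fold lower (10.8%) and 7363 lay within 2-fold (73.0%). At 4-fold the counts were 499 higher and 429 lower. The median log2 ratio over all members was 0.13, with the middle 50% of genes between -0.44 and 0.70. Rescaling each stage by its median ratio moved this median to -0.11 and turned the split to 1219 higher and 1548 lower over the same 10088 genes. Recomputing the totals without structural and mitochondrially encoded RNAs moved it to 0.30 over the 9862 members that remain, with 2078 higher and 843 lower. When the 10 TPM limit was applied again after each rescaling, the first gave 1230 higher and 1654 lower of 10467 genes, with a median of -0.14, and the second 3061 and 1057 of 12541, with a median of 0.38. Ratios of less than about this size therefore have no fixed sign in this table, and the direction in which most genes moved depends on the scaling.

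**Figure D1:**
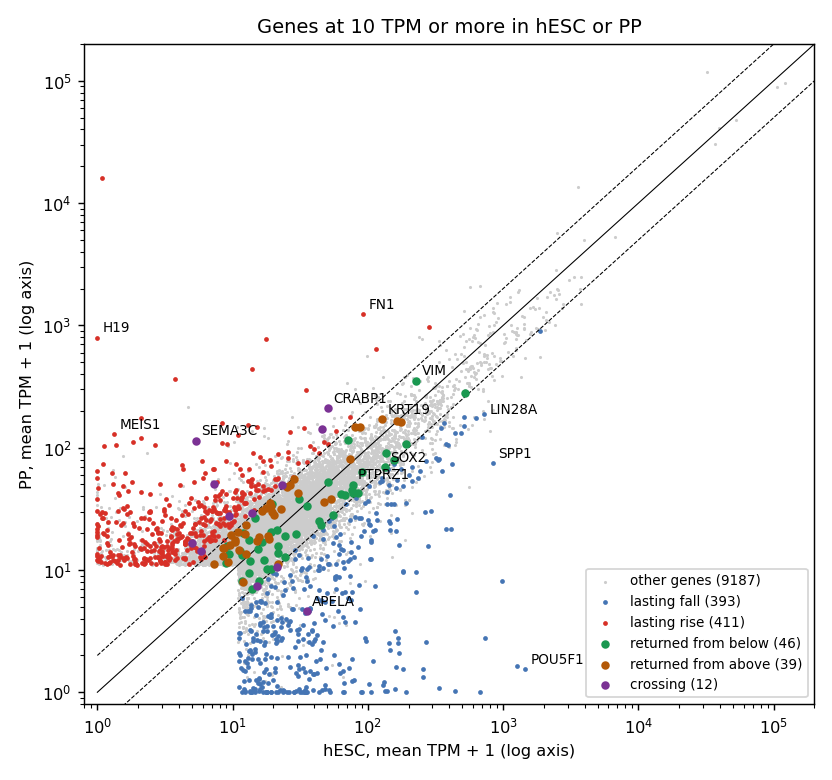
Mean TPM + 1 in hESCs (x, log axis) against PP (y, log axis) for the 10088 genes at 10 TPM or more in either, 1 point per gene, with the line of equality and dashed lines at 2-fold. Lasting falls and rises (blue and red) lie outside the dashed lines, returned genes (green and brown) lie between them, and POU5F1 sits at the bottom right with 1449 TPM in hESCs against 0.543 in PP.

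Each gene was then placed by where it had stood in PGT. Against hESCs, 448 members were at least 4-fold lower in PGT (4.44%) and 453 were at least 4-fold higher (4.49%). Of the 448, 46 (10.3%) were within 2-fold of hESCs in PP and are called returned from below, and 393 were still at least 2-fold lower, a lasting fall. Of the 453, 39 (8.61%) were within 2-fold in PP, returned from above, and 411 stayed at least 2-fold higher, a lasting rise. A further 12 genes crossed, 9 from low in PGT to at least 2-fold above hESCs in PP and 3 in the opposite sense. Genes that had been within 2-fold in PGT and differed only in PP numbered 425 higher and 322 lower, and the other 1162 genes changed in PP had moved 2-fold to 4-fold in PGT. Since hESCs are the reference of both ratios, the classes are a description of the 3 columns and not a test.

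**Figure D2:**
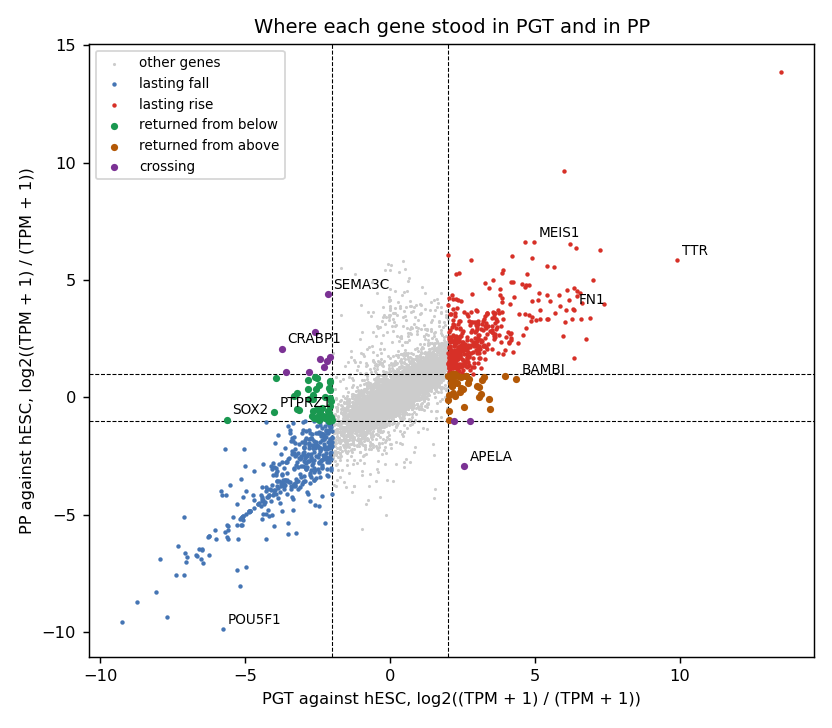
Log2 ratio to hESCs in PGT (x) and in PP (y) for the 10088 genes, 1 point per gene, with dashed lines at the 4-fold limits in PGT and the 2-fold limits in PP. The 46 and 39 returned genes fill the 2 bands left and right between the horizontal lines, and SOX2, at -5.63 and -0.95, lies farthest left among the former.

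SOX2 had the largest excursion of all returned genes. Its mean was 133 TPM in hESCs, 22.4 at DE, 1.7 at PGT, 68.2 at PP, 109 at PH and 50.9 at the SC-β stage. PGT is the low point of this course and PP the first stage after it, with a log2 ratio to hESCs of -5.63 at PGT and -0.95 at PP. The PP value lies close to the 2-fold limit, and under median-ratio rescaling it became -1.20, which would place SOX2 among the lasting falls, and a limit of 1.5-fold in PP would leave it out of the returned genes. Its forward-strand locus on chromosome 3 (181711925 to 181714436, GRCh38) sits inside the long noncoding RNA gene SOX2-OT. SOX2-OT did not start from a high hESC level. It was at 1.3 TPM in hESCs, 0.728 at DE, 0.341 at PGT, 7.85 at PP and 25.7 at PH, under 10 TPM in both columns compared. DNAJC19 and FXR1, the protein-coding neighbours upstream, stayed within 2-fold in PP, at log2 ratios of -0.18 and -0.35, and ATP11B, downstream, went from 13.7 to 40.9 TPM.

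PROM2, a cholesterol-binding membrane protein of epithelial protrusions, was taken as the second marker and missed membership by a narrow margin. It was at 0.0355 TPM in hESCs, 1.24 at DE, 2.91 at PGT, 9.57 at PP, 4.98 at PH and 6.93 at the SC-β stage, so its highest stage was PP and its lowest hESCs. Its relative PROM1, the CD133 antigen, took another course, at 27.2 TPM in hESCs, 44.5 at DE, 133 at PGT, 54.2 at PP, 18.6 at PH and 23 at the SC-β stage. PROM1 peaked in PGT and was classed as returned from above, with a log2 ratio of 0.97 at PP just inside the limit.

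The promoters of SOX2, PROM2 and BAMBI, the gene with the largest excursion in the opposite sense, are shown because SOX2 and BAMBI had the largest excursions of the returned genes and PROM2 is the second marker. They are RefSeq windows of 300 bases on GRCh38.p14, from 250 before to 50 after the start, with capitals marking matches to 6 searched motifs.
SOX2, chr3:181711675-181711974, forward strand: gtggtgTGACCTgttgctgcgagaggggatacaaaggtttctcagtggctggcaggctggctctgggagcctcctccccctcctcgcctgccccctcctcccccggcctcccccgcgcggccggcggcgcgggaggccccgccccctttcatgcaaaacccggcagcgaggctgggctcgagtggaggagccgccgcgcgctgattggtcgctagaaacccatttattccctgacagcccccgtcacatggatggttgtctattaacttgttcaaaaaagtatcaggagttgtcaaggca
PROM2, chr2:95274199-95274498, forward strand: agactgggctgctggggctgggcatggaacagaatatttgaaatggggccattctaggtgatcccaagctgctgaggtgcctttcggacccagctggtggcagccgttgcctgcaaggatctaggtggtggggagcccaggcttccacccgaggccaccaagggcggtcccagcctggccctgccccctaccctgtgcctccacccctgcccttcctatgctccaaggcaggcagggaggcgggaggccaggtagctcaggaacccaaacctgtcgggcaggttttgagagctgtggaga
BAMBI, chr10:28677271-28677570, forward strand: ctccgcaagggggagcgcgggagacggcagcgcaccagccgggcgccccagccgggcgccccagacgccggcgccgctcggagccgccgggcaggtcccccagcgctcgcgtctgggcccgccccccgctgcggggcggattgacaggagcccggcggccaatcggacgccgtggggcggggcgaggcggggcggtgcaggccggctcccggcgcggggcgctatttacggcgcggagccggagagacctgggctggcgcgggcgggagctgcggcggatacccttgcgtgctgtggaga
The motifs, read on both strands, were the octamer ATGCAAAT, ACAATG for SOX factors, TGTTTAC for forkhead factors, the nuclear receptor motif TGACCT, the TATA box TATAAA, and GATAAG for GATA factors. SOX2 held 1 kind of these, the nuclear receptor motif, which 13.9% of the 27305 promoters in the table hold, and the windows of PROM2 and BAMBI held none. The octamer was present in 1.8% of all promoters, the SOX motif in 11.0%, the forkhead motif in 3.41%, the TATA box in 12% and the GATA motif in 6.36%. CG dinucleotides numbered 20 in SOX2, 6 in PROM2 and 47 in BAMBI, beside a median of 14 over all promoters and of 27 over those of the members. A comparison of promoters between classes is void, because 33 of 46 genes returned from below and 29 of 39 returned from above had an entry, under the 80% that such a comparison needs.

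Genes returned from below, 46 in number, had median levels of 22 TPM in hESCs, 9.01 at DE, 3.48 at PGT, 19.7 at PP, 15.6 at PH and 21.3 at the SC-β stage. In PP 31 of the 46 were still under their hESC value. Of the 41 with a GENCODE entry, 40 were protein-coding and 1, TMSB4XP8, was a processed pseudogene of thymosin beta 4 whose reads may belong to the parent gene. Of the 15 neural genes at 10 TPM, SOX2 and FABP7 were the 2 in this class, beside 46 of all 10088 members. The other genes of the class named in this paragraph are on no list. They were named by a rule that takes the largest changes in PGT and the highest PP levels, so their values chose them. PTPRZ1, a receptor phosphatase of neural progenitors and glia, was at 76 TPM in hESCs, 62.8 at DE, 3.78 at PGT and 48.8 at PP. FABP7, a fatty acid carrier of radial glia, was at 10.7 TPM in hESCs, 0.328 at PGT, 7.11 at PP and 28.3 at PH. NLGN1, a synaptic adhesion protein, went from 10.8 TPM through 0.26 at PGT to 12.1 at PP. CALB1, a calcium buffer, was at 18.4 TPM in hESCs, 0.276 at PGT and 33.6 at PP but at 0.775 at PH and 3.68 at the SC-β stage, so it was above its starting value in PP alone. The neuropeptide gene NMU was at 12.2, 0.422 and 8.44 TPM in the same 3 stages.

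Of the 24 proliferation genes, 1 was in this class, beside 46 of all 10088 members. CDKN1A, the p21 inhibitor of cyclin-dependent kinases, was at 50 TPM in hESCs, 1.15 at DE, 4.06 at PGT and 51.4 at PP, and with a log2 ratio of 0.04 it was the closest to its starting level among the 4 genes with the deepest low. PTTG1, which encodes securin and is not on that list, was at 189, 28.5 and 107 TPM in hESCs, PGT and PP, and DLGAP5, a spindle protein, was at 136, 30.2 and 88.8. UBE2S, an E2 enzyme of the anaphase-promoting complex, was at 76.2, 17.7 and 41.6 TPM. The histone genes HIST2H3D, HIST3H2A and HIST3H2BA also belonged here, HIST2H3D at 517, 107 and 280.4 TPM. Histone genes have near-identical copies and their reads may be shared out among them.

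The class, which takes 46 of all 10088 members, also held 2 of 16 FGF genes and 2 of 11 mesenchymal genes at 10 TPM. FGF8, a ligand, was at 13.5 TPM in hESCs, 20.4 at DE, 1.39 at PGT, 25.5 at PP and 0.421 at PH. ETV4, an ETS factor that is switched on by FGF signals, was at 62.6, 10.9 and 40.8 TPM in hESCs, PGT and PP. ETS1, another ETS factor, was at 34.8, 4.59 and 32.4 TPM. VIM, the intermediate filament of mesenchymal and neural cells, had the highest PP level of the class, at 226 TPM in hESCs, 48 at DE, 52.3 at PGT, 353 at PP, 1437.5 at PH and 1767 at the SC-β stage. COL1A2, a chain of type I collagen, was at 70.01, 15.9 and 114 TPM in hESCs, PGT and PP and at 509 at the SC-β stage. For VIM and COL1A2 the PP value lay within 2-fold of hESCs while the values of PH and SC-β organoids lay well above it.

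**Figure D3:**
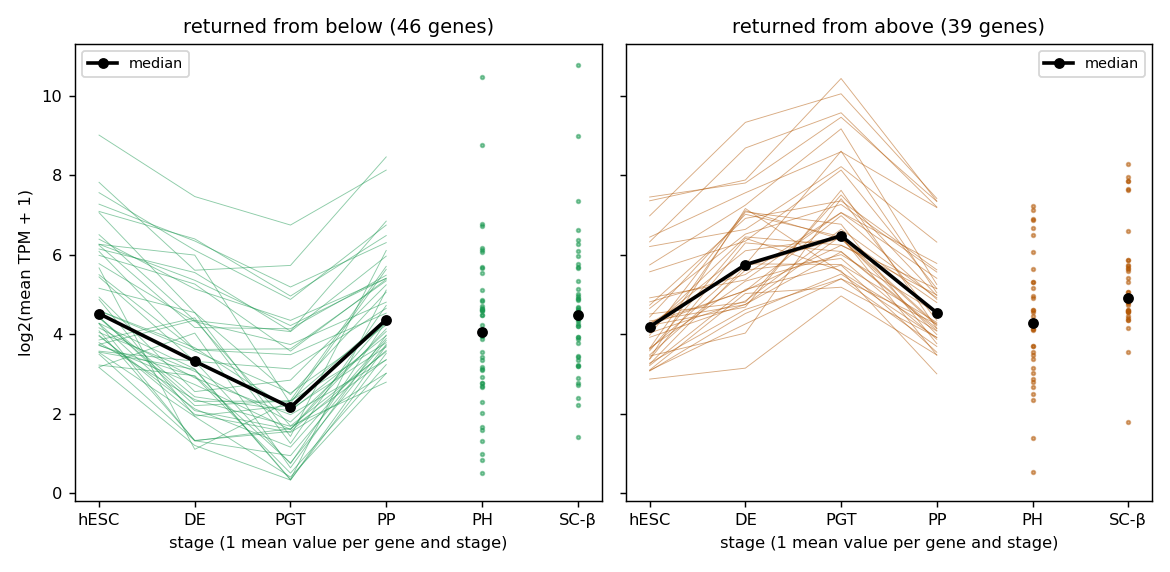
Log2(mean TPM + 1) by stage for the 46 genes returned from below (left) and the 39 returned from above (right), 1 thin line per gene from hESC to PP, points for PH and SC-β, and black for the median level. The median falls from 22 TPM in hESCs to 3.48 in PGT and is 19.7 in PP on the left, and goes from 17.3 to 88.4 and to 22.3 TPM on the right.

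Genes returned from above, 39 in number, had median levels of 17.3 TPM in hESCs, 53.0 at DE, 88.4 at PGT, 22.3 at PP, 18.4 at PH and 29.1 at the SC-β stage. In PP 32 of the 39 were still above their hESC value. BAMBI, a decoy receptor that dampens TGF-β and BMP signals, had the largest log2 ratio of PGT to hESCs, at 4.34. It was at 18.3 TPM in hESCs, 53 at DE, 390.5 at PGT, 32.1 at PP, 7.15 at PH and 51.9 at the SC-β stage. The BMP target ID1 was at 79.4, 412, 764 and 147 TPM from hESCs to PP, and ID3 was at 86.3, 188, 386 and 145. These 3 genes were high in DE and PGT and came back together, whereas ID2 was at 36.2, 302 and 102 TPM in hESCs, PGT and PP and ID4 at 3.19, 123 and 71.6, so both stayed more than 2-fold above hESCs. Under totals without structural RNAs ID1 passed the 2-fold limit in PP as well.

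Of the 22 epithelial junction and membrane genes at 10 TPM, KRT19 and PROM1 were the 2 in this class, beside 39 of all 10088 members. KRT19, a keratin of simple and ductal epithelia, had the highest PP level of the class, at 126 TPM in hESCs, 646 at DE, 1064 at PGT, 170.5 at PP, 89.97 at PH and 231 at the SC-β stage. CGN, which encodes the tight junction protein cingulin, was at 21.9, 181 and 30.5 TPM in hESCs, PGT and PP. AHNAK, a large scaffold protein, was at 11.5, 108 and 12.6 TPM and reached 201.5 at the SC-β stage. LIFR, the receptor of leukaemia inhibitory factor, was at 8.53, 85.1 and 15 TPM. RXRA, the partner of retinoic acid receptors, was at 7.44, 44.8 and 14.1 TPM.

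HLA-B, which encodes a class I antigen-presenting chain, was 1 of 7 genes of the class that came back to a value under their start, at 52.7 TPM in hESCs, 152 at DE, 577 at PGT, 37.2 at PP, 23.3 at PH and 28.1 at the SC-β stage. HLA class I genes are near-identical in sequence and can share reads. CTSL, a lysosomal protease, also came back to less than its start, at 46.7, 280.5 and 34.6 TPM in hESCs, PGT and PP. CADPS, a protein of dense-core vesicle release, was at 17.7, 197 and 16.8 TPM, and DOK4, an adaptor of receptor tyrosine kinases, at 9.95, 169.9 and 19.5. The long noncoding RNA FIRRE was at 24.2, 153 and 46.5 TPM in these stages and at 0.449 at PH. The class also held the snRNA entries RNU1-2 and RNU1-4, at 1389.5 and 706 TPM at PGT against 163 and 162 at PP, which are near-identical copies of the same U1 RNA, and the small RNA entry MIR421.

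Genes close to a limit were placed by small differences. CHRDL1 and ACSL4 were the nearest inside the lower PP limit, at log2 ratios of -1.0 and -0.99, and NPTX2 and TCEAL7 the nearest outside, at -1.0 and -1.01. On the upper side C16orf58 and PROM1 lay inside at 0.99 and 0.97 and KIT and FBN3 outside at 1.01 and 1.03. For PGT, RRM2B and LIPA were just past the 4-fold lower limit, at -2.01 and -2.04, and the mitotic genes PLK1 and CCNA2 just short of it, at -1.95 and -1.95. GOLGA2 and BEX1 were just past the upper one, at 2.0 and 2.01, and PCAT14 and PTPN13 short of it, at 2.0 and 1.99. The neuronal gene STMN2 would have been returned from below but for its 9.92 TPM in hESCs, under the level of 10 TPM.

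The 12 crossing genes had gone one way in PGT and the other in PP. SEMA3C, a secreted guidance cue, had the largest PP ratio, at 4.38 TPM in hESCs, 0.24 at DE, 0.205 at PGT and 113 at PP, a log2 ratio of 4.4. NGFR, a neurotrophin receptor of neural crest and nerve-associated cells, was at 6.32, 0.226 and 49.7 TPM in hESCs, PGT and PP. CRABP1, a carrier of retinoic acid, was at 49.5 TPM in hESCs, 62.9 at DE, 2.77 at PGT, 209 at PP, 374 at PH and 408 at the SC-β stage. SCG2, a granin of secretory granules, was at 4.04, 0.189 and 15.7 TPM, and COL5A2, a fibrillar collagen chain, at 44.6, 7.6 and 142. NFASC, MEGF10 and NEFL, genes of neurons or glia, also went from low to high, with PP levels of 26.5, 13.3 and 28.5 TPM. In the opposite sense APELA, the peptide ligand of the apelin receptor, was at 34.4 TPM in hESCs, 207 at PGT and 3.62 at PP, and KCNK1 and RGS2 passed the PP limit narrowly, at log2 ratios of -1.03 and -1.03.

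Of the pluripotency genes, 13 were lasting falls and 4 were lower in PP only. Of the 25 genes listed for pluripotency, all in the table, 22 reached 10 TPM (UTF1, TERT and FOXD3 did not), and of these, 9 of which passed the filter in hESCs only, 19 were at least 2-fold lower in PP, 3 lay within 2-fold and none was higher, with a median log2 ratio of -3.58 beside 0.13 for all members. A gene far under 10 TPM in one column can pass the filter only through the other, which fixes its direction. Counts over every listed gene present, with no filter, are therefore given where many passed that way, and over all 49085 names these were 3916 higher and 1993 lower, with a median of 0.04. For pluripotency they were 20 lower and none higher of 25, with a median of -2.85. POU5F1 had the largest fall of all genes, at 1449 TPM in hESCs, 417 at DE, 25.4 at PGT and 0.543 at PP, a log2 ratio of -9.88. NANOG was at 44.6, 8.96, 0.293 and 0.0352 TPM from hESCs to PP, and PRDM14, a repressor of differentiation genes, at 47.3, 4.75, 0 and 0.0646. DNMT3B, a de novo DNA methyltransferase, was at 375, 186, 51.7 and 20.8 TPM. SOX2, LIN28B and CD24 were the 3 within 2-fold, and LIN28B held near its start in every stage from hESCs to PP, at 56.3, 64.2, 52.7 and 75.1 TPM. POU5F1 and SOX2, which act together on shared sites in pluripotent cells, thus parted in PP, at 0.543 and 68.2 TPM. The pluripotency-associated noncoding RNAs LINC00458, at 1269.9 TPM in hESCs and 0.642 at PP, and ESRG, at 129 and 0.146, fell with the former, as did the interferon-induced membrane protein gene IFITM1, at 977.5 and 7.17.

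Nodal pathway genes were mixed in direction. Of 19 listed and present, 15 reached 10 TPM, 9 in hESCs only and 3 in PP only. Among the 15, 8 were lower, 3 higher and 4 within 2-fold, beside 10.8%, 16.3% and 73.0% over all members. Of the 3 at 10 TPM in both columns none was higher or lower, so the filter favours the directions seen. Over all 19, without a filter, 8 were lower and 3 higher, with a median log2 ratio of -0.65. The ligand NODAL was at 181 TPM in hESCs, 31.3 at DE, 0.988 at PGT and 0.55 at PP. Its co-receptor TDGF1 was at 255.5, 293, 5.61 and 0.545 TPM, and its inhibitors LEFTY1 and LEFTY2 at 168 and 42.6 TPM in hESCs and 1.11 and 0.0126 at PP. CER1, a secreted inhibitor, peaked in DE at 1483 TPM from 269.7 in hESCs and was at 1.58 at PP. The transcriptional partner FOXH1 was the late one, at 21.9, 57.8, 12.6 and 0.109 TPM. The receptors were higher or within 2-fold. ACVR1B was at 5.87 and 17.1 TPM in hESCs and PP, ACVR2A at 5.54 and 16.7, and ACVR2B at 24.8 and 48.2, within 2-fold. The signal mediator SMAD3 was at 6.54 and 16.1 TPM, a rise that median-ratio rescaling brought under 2-fold, and SMAD2 at 38.9 and 34.1.

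Of the pluripotency genes, 4 were within 2-fold of hESCs in PGT and at least 2-fold lower in PP. LIN28A, an RNA-binding inhibitor of let-7 maturation, was at 724 TPM in hESCs, 772 at DE, 516 at PGT, 169 at PP and 27.5 at the SC-β stage. ZFP42 (REX1) was at 149.7, 58.5, 106 and 11.7 TPM from hESCs to PP. The DE value of ZFP42 was already more than 2-fold under its start. TRIM71 and SALL4 had PGT levels of 99.2 and 87.1 TPM, against 134 and 103.4 in hESCs and 43.7 and 46.4 at PP. OTX2, a factor of the anterior epiblast and head, was at 22.1, 229, 23.9 and 0.964 TPM. TRIML2 had the largest ratio of this class, at 64.2 TPM in hESCs, 32.3 at PGT and 0.321 at PP, followed by CST1, a cystatin protease inhibitor, at 53, 47.8 and 0.676, and the retroviral envelope-derived ERVH48-1 (suppressyn) stood at 67.9, 52.9 and 2.58.

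**Figure D4:**
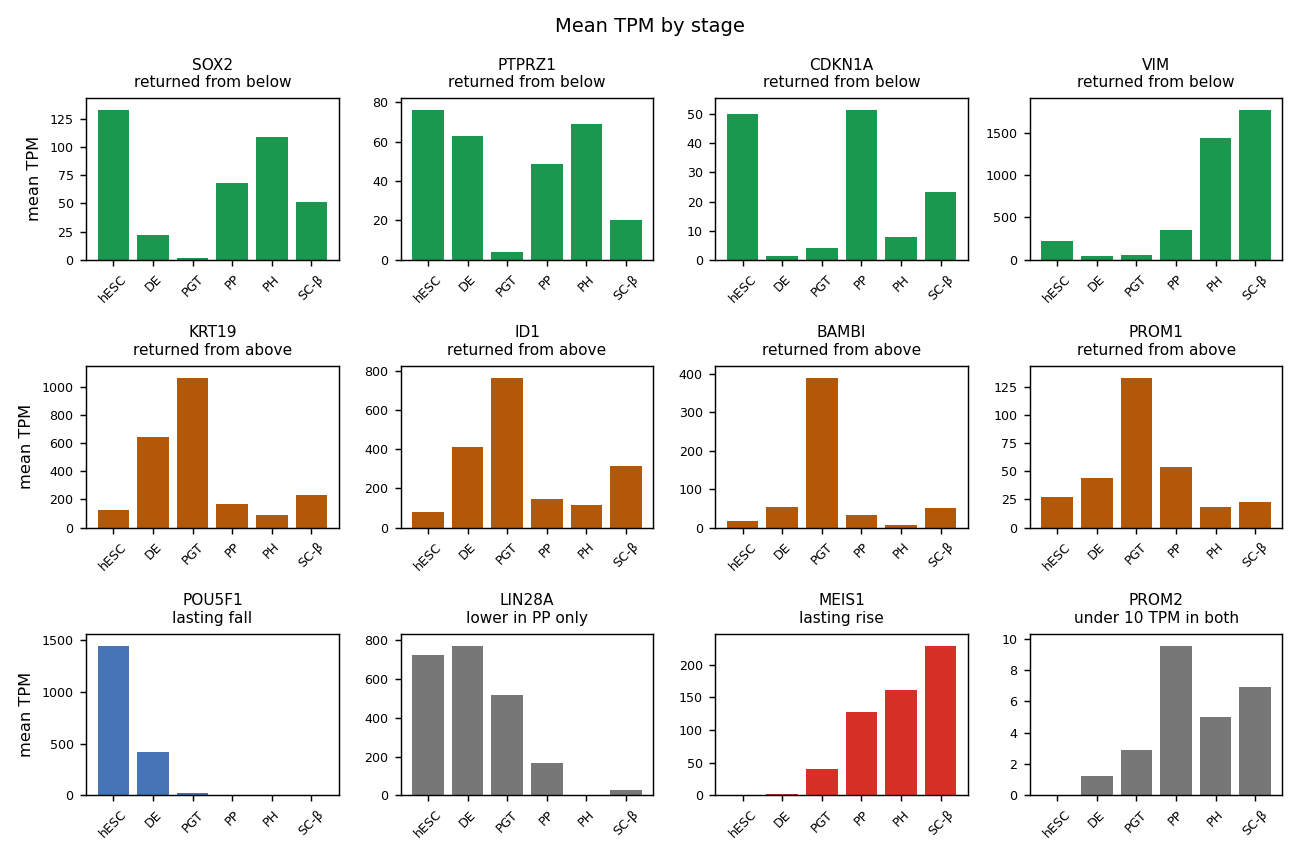
Mean TPM by stage for 12 genes, 1 panel per gene with its own linear axis from 0, bars giving the authors' mean without error. SOX2, PTPRZ1, CDKN1A and VIM are low in PGT, KRT19, ID1, BAMBI and PROM1 peak there, POU5F1 is near 0 from PGT on, LIN28A stays at 516 TPM in PGT before 169 in PP, and MEIS1 and PROM2 are higher in PP than in hESCs.

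Of the 21 gut tube and foregut factors, all present, 17 were at least 2-fold higher in PP and 1 lower without a filter on level, with a median log2 ratio of 2.02. The 10 that reached 10 TPM did so in PP only for 9 of them, so that the filter alone favours higher values among them, 6 as lasting rises. FOXA1, a pioneer factor of endoderm, was at 0.0733 TPM in hESCs, 28.5 at DE, 86 at PGT, 25.8 at PP and 14.7 at the SC-β stage. GATA4 was at 0.734, 47.5, 29.6 and 10.2 TPM and GATA6 at 2.3, 47.5, 29.97 and 11.6. FOXA1, GATA4 and GATA6 were all higher in PGT than in PP. NR2F2 and NR2F1, orphan nuclear receptors with a listed value of 0 in hESCs, reached 29.1 and 13.4 TPM at PP, above their PGT levels of 17.7 and 0.783. HNF4A, HHEX and FOXA3 were high in PGT, at 33.7, 137 and 26.9 TPM, and were at 3.9, 8.03 and 4.04 at PP, below 10 TPM. Of 14 genes listed for primitive streak and definitive endoderm, 6 were higher and 8 lower without a filter, with a median of -1.10, and of the 8 that reached 10 TPM, 5 did so in PP only and 3 in hESCs only. CXCR4, a chemokine receptor used to sort endoderm, was at 6.53, 350.3, 63.7 and 23 TPM, and EOMES at 12.5, 172, 0.353 and 0.0167.

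Of 19 genes listed as pancreatic progenitor factors, all in the table, 15 were higher in PP and 1, NR5A2, was lower without a filter, with a median log2 ratio of 2.06. Of the 10 that reached 10 TPM, 7 did so in PP only. MEIS1, a homeobox cofactor, led them at 0.325 TPM in hESCs, 2.09 at DE, 39.9 at PGT, 128 at PP and 229.4 at the SC-β stage, and its relative MEIS2 was at 0.111 and 102 TPM in hESCs and PP. SOX9 was at 0.374, 0.77, 5.9 and 23.7 TPM, highest in PP of these 4 stages. GLIS3 was at 0.601, 4.14 and 12 TPM in hESCs, PGT and PP, and HES1, a Notch effector, at 14.3, 68.7 and 44.4. The 9 that did not reach 10 TPM included RFX6 at 8.54 TPM at PP, MNX1 at 5.85, NKX6-2 at 5.2 and NKX2-2 at 0.493, beside PDX1, NKX6-1 and PTF1A.

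The largest lasting rises outside the lists were of genes with mixed tissue roles. The imprinted noncoding RNA H19 was listed at 0 in hESCs and was at 63.4 TPM at PGT and 789.7 at PP. COL2A1, the collagen of cartilage and notochord sheath, was at 2.77, 92.9 and 364 TPM in hESCs, PGT and PP. DLK1, an imprinted membrane ligand, was at 0.373, 208 and 104.6 TPM, PRTG at 1.11, 177 and 174, the cadherin CDH6 at 0.835, 53.2 and 109.9, and KRT23 at 0.0985, 3.4 and 72.1. Signal recognition particle RNA entries with near-identical copies were counted in the class and are not ranked.

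Of 26 endocrine genes, all present, 18 were higher in PP and 1, SCG3, was lower without a filter, with a median log2 ratio of 1.65. Of the 11 that reached 10 TPM, 10 did so in PP only, among them 2 lasting rises, 3 genes higher in PP only and 1 crossing gene. Chromogranin A (CHGA) was at 3.7 TPM in hESCs, 5.51 at DE, 0.438 at PGT, 215 at PP and 805 at the SC-β stage. Somatostatin (SST) was at 0.122, 0.599 and 48.1 TPM in hESCs, PGT and PP, ghrelin (GHRL) at 0.802, 2.25 and 18.1, and the glucagon gene (GCG), listed at 0 in hESCs and PGT, passed 10 TPM in PP. The prohormone-processing enzyme CPE was at 9.79, 24 and 147 TPM, after 224 at DE. ISL1 was at 0.0206, 58.3 and 14 TPM, so this factor was lower in PP than in PGT. INS and NEUROD1 stayed under 10 TPM, at 6.93 and 4.16 TPM at PP. SPINK1, a trypsin inhibitor, had the largest ratio of the genes higher in PP only, at 0.557, 1.1 and 84.9 TPM, and PAX8, listed at 0 in hESCs, was at 0.233 at PGT and 39.96 at PP. NELL1 was at 0.0164 and 49.7 TPM in hESCs and PP, and S100A3 at 0.342 and 57.1, the latter back at 0.986 at the SC-β stage.

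Of 20 retinoic acid genes, all present, 13 were higher in PP and 2 lower without a filter, with a median log2 ratio of 1.49. Of the 15 that reached 10 TPM, 8 did so in PP only and 4 in both columns, 3 of these 4 being higher. The carrier CRABP2 was at 96.9 TPM in hESCs, 126 at PGT and 563 at PP. STRA6, the retinol importer, was at 8.19, 4.86 and 101 TPM, and the receptor RARB at 1.53, 11.2 and 18.6. The target gene HOXB1 was at 0.661 TPM in hESCs, 0.238 at PGT and 12.3 at PP. The synthesis enzyme ALDH1A1 peaked in PGT, at 0.574, 136 and 30.3 TPM. The degrading enzyme CYP26A1, also a target, was lower, at 15 TPM in hESCs, 392 at DE, 0.426 at PGT and 1.65 at PP, and CYP26B1, at 4.84 TPM at PP, did not reach 10 TPM.

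Of 16 hedgehog genes, all present, 9 were higher in PP and 1 lower without a filter, with a median of 1.32, and 5 of the 8 that reached 10 TPM did so in PP only. The ligand SHH was at 0.17, 32.6 and 10.1 TPM in hESCs, PGT and PP, the co-receptor BOC at 0.806, 16.6 and 51.6, and the factor GLI3 at 2.71, 3.54 and 18.3. The single lower gene was GLI1, a direct target of the pathway, at 11.1 TPM in hESCs, 2.85 at DE, 4.51 at PGT and 0.747 at PP. PTCH1, another target, was at 8.85, 40.01 and 9.04 TPM. Of these targets GLI1 was lower and PTCH1 level with its start.

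BMP genes reached 10 TPM in 13 of 22 listed and present, 4 of them in PP only and 2 in hESCs only. Without a filter 10 of the 22 were higher and 1 lower, with a median of 0.93. Among those at 10 TPM in both columns 1 was higher and none lower. Of the 13, 5 were higher in PP, 1 was lower and 7 were within 2-fold, beside 16.3%, 10.8% and 73.0% over all members. Their median was 0.78 against 2.15 in PGT. Of the 7, 3 (BAMBI, ID1 and ID3) were returned from above, a class of 39 among all 10088 members. MSX1 and MSX2, homeobox targets of BMP, were at 0.145 and 0.692 TPM in hESCs, 11.2 and 41.9 at PGT and 28.2 and 43.2 at PP, so they did not follow the ID genes down. FST, which encodes the activin antagonist follistatin, was at 21.8, 16.2 and 3.81 TPM. SMAD6, an inhibitor induced by BMP, was at 3.57, 73.6 and 8.72 TPM, under 10 TPM in hESCs and PP.

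FGF genes reached 10 TPM in 16 of 19, with 3 higher, 4 lower, 9 within 2-fold and a median of -0.18. The shares over all members were 16.3% higher, 10.8% lower and 73.0% within 2-fold. The ligand FGF2 was at 56.6, 3.91 and 7.45 TPM in hESCs, PGT and PP and FGF17 at 12.5, 1.42 and 2.23, whereas FGF8 returned as described. The feedback inhibitors DUSP6 and SPRY2 were at 8.45 and 28.8 TPM in hESCs and 54.9 and 72.2 at PP. The receptors FGFR1 and FGFR2 stayed within 2-fold, at 78.9 and 35.9 TPM in hESCs and 81.5 and 55.6 at PP, while FGFR4 was at 54.3 and 18.6. Notch genes reached 10 TPM in 7 of 19, 2 of them in PP only, with 5 higher, none lower and a median of 1.10. Without a filter 8 of the 19 Notch genes were higher and 2 lower, with a median of 0.80. The target HEY1 was at 0.72, 10.4 and 15.2 TPM and the ligand JAG1 at 16.8, 7.74 and 49.6. Under median-ratio rescaling 3 of the 5 higher Notch genes kept a 2-fold rise. WNT genes reached 10 TPM in 17 of 32, 7 of them in PP only, with 7 higher, 3 lower, 7 within 2-fold and a median of 0.61. Without a filter 14 of the 32 WNT genes were higher and 3 lower, with a median of 0.97. The nuclear effector LEF1 was at 0.453, 3.17 and 24.5 TPM, the ligand WNT5A at 1.72, 4.72 and 32, and the secreted inhibitor FRZB at 0.588, 3.8 and 21.8. SP5, a target of the pathway, was at 13.4, 22 and 1.13 TPM, and DKK1, an inhibitor, peaked in PGT at 429 TPM and was at 7.16 in hESCs and 3.79 at PP, under 10 TPM in both.

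The genes of chromatin architecture at 10 TPM lay within 2-fold of their hESC levels in PP. Of 19 genes listed for CTCF and cohesin, 18 were in the table (WAPL under its older name WAPAL, which is listed too) and 17 reached 10 TPM. All 17 were within 2-fold of hESCs in PP, beside 73.0% of all members. Their median log2 ratio was 0.03, and it was -0.21 under median-ratio rescaling and 0.19 without structural RNAs. CTCF, the zinc finger protein that anchors loops, was at 38.8 TPM in hESCs, 52.8 at DE, 46.3 at PGT and 43 at PP. The cohesin subunit RAD21 was at 101, 139, 85.1 and 101 TPM, and the loader NIPBL at 20.8, 48.6, 43.3 and 35.2. STAG1 was at 18.2 and 35 TPM in hESCs and PP, and the other STAG subunit, STAG2, at 65.7 and 53.7. STAG1 passed 2-fold once structural RNAs were left out.

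Of 17 genes for H3K9 methylation and the ChAHP complex (CHD4, ADNP and an HP1 protein), 16 reached 10 TPM, 2 were higher, 14 within 2-fold and none lower, with a median of 0.54. The share of higher genes is close to the 16.3% over all members, and the count was 1 under median-ratio rescaling and 5 without structural RNAs. EHMT2, which adds mono- and dimethyl marks to H3K9, was at 28.9, 94.8 and 78.7 TPM in hESCs, PGT and PP, and CBX5, the HP1 alpha protein, at 53.9, 104 and 122. CHD4 was at 136 and 182 TPM in hESCs and PP, ADNP at 13.7 and 21.7, and the H3K9 methyltransferase SETDB1 at 28.2 and 57.1, just inside 2-fold. DNA methylation genes reached 10 TPM in 11 of 14, with 2 higher, 1 lower, 8 within 2-fold and a median of 0.30, shares close to the 16.3%, 10.8% and 73.0% over all members. TET2, which oxidises 5-methylcytosine, was at 0.891 TPM in hESCs, 12.1 at DE, 17.2 at PGT and 14.7 at PP. TET1 was at 45.4 and 22.7 TPM in hESCs and PP, TET3 at 3.66 and 10.2, and the maintenance enzyme DNMT1 at 66.8 and 82.2. DNMT3B was the gene that fell.

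Glycolysis genes were lower in 14 of 21 that reached 10 TPM, of 22 listed and present, beside 10.8% over all members. None was higher, and the median log2 ratio was -1.11. ENO1 was at 1877 TPM in hESCs, 772 at DE, 550.2 at PGT and 554 at PP. ALDOA was at 366, 186, 119 and 104 TPM, and the muscle-type phosphofructokinase gene PFKM went from 32.1 to 55.5 while the platelet type PFKP went from 104 to 15.8. The glucose transporter SLC2A3 rose in PGT before it fell, at 188, 539 and 33.1 TPM. PDK1, a kinase that restrains pyruvate entry to mitochondria, was returned from below, at 23.2, 3.32 and 11.9 TPM. The number of lower genes was 16 under median-ratio rescaling and 10 without structural RNAs, where all members gave 1548 of 10088 and 843 of 9862.

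Proliferation genes were mostly within 2-fold. All 24 listed genes reached 10 TPM, and 20 were within 2-fold in PP, 3 lower and 1, the cell cycle inhibitor CDKN1C, higher, with a median of -0.28 in PP against -1.20 in PGT. Over all members 73.0% were within 2-fold, 10.8% lower and 16.3% higher. MKI67 was at 17.7, 19.5 and 17.3 TPM in hESCs, PGT and PP. CCNB1, a mitotic cyclin, was at 182, 50.8 and 122 TPM, TOP2A at 146, 71.8 and 167, and PCNA at 289, 121.5 and 222. These 3 were lowest in PGT of the 3 stages. MCM5, CCNE1 and BUB1, the lower genes, had log2 ratios of -1.15, -1.07 and -1.06, all close to the limit. Median-ratio rescaling gave 7 lower genes and a median of -0.53, and leaving out structural RNAs gave none lower and a median of -0.13.

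**Figure D5:**
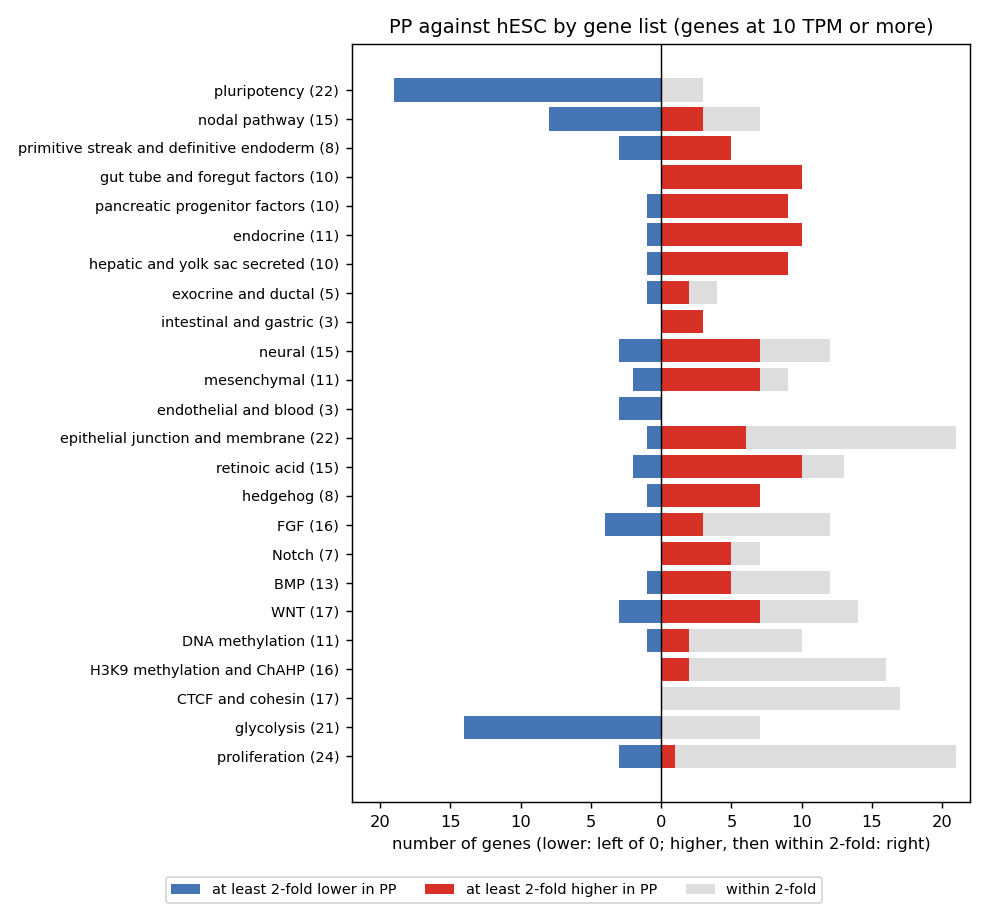
Number of genes at 10 TPM or more in each of the 24 lists (that number in brackets) that were at least 2-fold lower in PP than in hESCs (blue, left of 0), at least 2-fold higher (red, right of 0) or within 2-fold (grey, after red). Pluripotency has 19 lower of 22, gut tube and foregut factors 10 higher of 10 (9 of which reached 10 TPM in PP only), and CTCF and cohesin 17 within 2-fold of 17.

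Markers of other cell types were read in the same way, since PP spheroids are not sorted. Of 18 hepatic and yolk sac secreted genes, 12 were higher in PP and 1 lower without a filter, with a median of 2.62. Of these 10 reached 10 TPM, 9 of them in PP only, and the sum over the list was 596 TPM in hESCs, 2730 in PGT and 512 in PP. TTR, the carrier of thyroxine and retinol-binding protein, was listed at 0 in hESCs and was at 943 TPM at PGT and 55.8 at PP. APOA1 was at 0.536, 252 and 23.2 TPM, AMBP at 1.1, 13.4 and 119.5, and SERPINA1 at 0.0186, 49.7 and 46.1. ALB was at 0.649 TPM at PP. APOE carried most of the hESC sum, at 589 TPM against 152 at PP. Among hESCs, PGT and PP, AMBP was thus highest in PP and APOA1 in PGT.

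Of 22 mesenchymal genes, 12 were higher in PP and 2 lower without a filter, with a median of 1.60. Of the 11 that reached 10 TPM, 6 did so in PP only, while VIM and COL1A2 were returned from below. The sum over the list was 748 TPM in hESCs, 7460 in PGT, where FN1 was at 7276 TPM, and 1900 in PP, where FN1 was at 1232. ZEB2 was at 0.304, 0.239 and 65.3 TPM in hESCs, PGT and PP, PRRX1 at 0.0505, 0.268 and 16.4, COL3A1 at 0.04000, 0.921 and 14.9, and POSTN at 0.951, 0.378 and 11. TAGLN and THY1 were lower, at 277 and 57 TPM in hESCs and 14.6 and 10.2 at PP. The stromal markers LUM, DCN and TCF21 were at 1.98, 2.13 and 0.0344 TPM at PP.

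Of 32 neural genes, 12 were higher in PP and 4 lower without a filter, with a median of 0.31. Of these 15 reached 10 TPM, 5 in PP only and 4 in hESCs only. Among the 15, 7 were higher, 3 lower and 5 within 2-fold, beside 16.3%, 10.8% and 73.0% over all members. Of the 6 at 10 TPM in both columns, 2 were higher and 1 lower. The sum over the list was 596 TPM in hESCs, 451 in PGT, 703 in PP and 3020 in PH. PAX3, a factor of dorsal neural tube and neural crest, was at 0.214, 1.58 and 30.9 TPM in hESCs, PGT and PP, ZIC1 at 0.0219, 0.00456 and 17.2, MAP2 at 0.677, 5.97 and 18.8, and DCX at 2.23, 3.62 and 12. SOX1, PAX6 and HES5, which define neural progenitors, were at 0.29, 2.27 and 0.0882 TPM at PP. SOX2 and PTPRZ1 came back in the same stage in which PAX3, ZIC1, MAP2 and DCX rose, and in PH, where SOX2 was at 109 TPM, HES5 was at 109.8 and STMN2, which encodes a neuronal microtubule protein, at 301. Whether other cell types in the PP spheroids have a part in the values of SOX2 or of the other returned genes was not tested.

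Of 15 intestinal and gastric genes present among 16 listed, 7 were higher in PP and none lower without a filter, with a median of 0.98. The 3 that reached 10 TPM did so in PP only, with CLDN18 at 25.6 TPM, VIL1 at 28.8 and IRX3 at 10.7 at PP, from 0.153, 1.47 and 0.341 in hESCs. CDX2, the defining factor of intestine, was at 2.09 TPM at PP, and TFF2 was listed at 0. Exocrine and ductal genes reached 10 TPM in 5 of 14 present among 16, with 2 higher, among them ANXA4 at 30.4 TPM, KRT19 and PROM1 returned from above and SPP1 lower, at 837 TPM in hESCs, 0.446 at DE, 22.6 at PGT and 73.4 at PP. Endothelial and blood genes reached 10 TPM in 3 of 15 (FLT1, KDR and TEK), all in hESCs only and so lower in PP, and PECAM1 and CDH5 were at 0.0317 and 0.369 TPM at PP with a list sum of 7.28 TPM. Epithelial junction and membrane genes reached 10 TPM in 22 of 25, with 15 within 2-fold, 6 higher, 1 lower and a median of -0.02 that turned to 0.14 without structural RNAs. Among all members 73.0% lay within 2-fold, 16.3% were higher and 10.8% lower. CDH1, the epithelial cadherin, was at 87.4, 145.4 and 92.6 TPM in hESCs, PGT and PP, EPCAM at 160.1, 348 and 179.9, and CLDN4 at 13.9, 45.2 and 72.1.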

How the data were processed

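RNA-seq was measured in 12 of the 148 samples, 2 per stage, all from H9 cells. Per the submitters' processing notes, reads were aligned to hg38 with HISAT2 (2.2.0) and quantified with StringTie (2.1.6). The authors deposited 1 table of TPM values, which they had averaged over the replicates of each stage. TPM keeps no depth, and with 1 mean per stage no error, test or interval could be computed. Entries sharing a gene name were summed (50451 entries, 49085 names, of which 231 were repeated). PP was compared with hESCs by log2((TPM + 1) / (TPM + 1)) at 10 TPM or more in either column, and PGT gave the classes. Changes were called at 2-fold in PP and 4-fold in PGT. Genes named by rule were those with the largest ratios in each class, those next to each limit, neighbours of SOX2 and PROM2, and the listed genes. Further genes, among them UBE2S, CTSL, FIRRE and SLC7A5, were picked from a class or family after their values were seen. Members and lists were chosen with earlier results of these data known. Alternatives were other pseudocounts, filters, limits and scalings (median-ratio factors came from 13938 genes), and code was tested on simulated data. Gene positions and types came from GENCODE (version 44) and promoters from RefSeq (GRCh38.p14). Some listed genes are not reported here by name. Python (3.11.15) with pandas (2.3.3), numpy (2.4.6) and matplotlib (3.10.9) was used.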

Additional observations from a re-analysis of the deposited data

How the results depend on the processing

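No paired analysis was possible because each stage has a single mean value, and for the same reason no replicate could be left out. Against the reported counts, a pseudocount of 0.1 TPM gave 25 crossing genes, and one of 5 TPM gave 15 genes returned from below, 235 lasting falls, 194 lasting rises and 2 crossing genes. Median-ratio rescaling gave 1654 genes lower in PP. Totals without structural and mitochondrially encoded RNAs gave 3061 genes higher in PP, 91 returned from below, 706 lasting rises, 940 higher in PP only and 19 crossing, and totals without the 100 most abundant genes gave 3185, 94, 768, 943 and 19. Without a filter there were 3916 genes higher, 1993 lower, 77 returned from below, 253 returned from above, 774 lasting rises, 589 lower in PP only and 1424 higher in PP only. At 30 TPM there were 529 higher, 656 lower, 21 returned from below, 16 returned from above, 232 lasting falls, 140 lasting rises, 189 lower in PP only, 141 higher in PP only and 6 crossing. A limit of 1.5-fold in PP left 20 genes returned from below and 17 from above. A limit of 8-fold in PGT left 7 and 9, with 212 lasting falls, 152 lasting rises and 2 crossing, and one of 3-fold gave 91 and 105 with 677 lasting rises. The filters and limits move these counts by their construction, and for the scalings part of the change comes from the number of genes at 10 TPM, while the rest of the cause was not tested. Of the 46 and 39 returned genes, 11 and 25 remained in their class with a pseudocount of 5 TPM, 31 and 21 under median-ratio rescaling and 44 and 25 without structural RNAs. The 381 genes named by rule were followed under the other pseudocounts, the scalings and the highest entry of a repeated name. Those among the 100 most abundant genes have no value without these. No 2-fold direction reversed in these settings, 63 values gained a 2-fold call and 63 lost it. The genes picked outside the rules were not followed in this way.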

Other observations

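Gene families outside the lists were chosen after their values were seen, so that their counts are a description only. HOX genes, which set position along the body axis, had 36 names in the table, none at 10 TPM in hESCs, DE or PGT, 7 in PP, 16 in PH and 10 in SC-β organoids. Among the 7 in PP were HOXA2, HOXA3, HOXB2 and HOXB3, and the family summed to 1.54 TPM in hESCs, 0.683 at DE, 6.66 at PGT, 181 at PP and 941 at PH. HOXB3 was the highest ratio among them, at 0.0551 TPM in hESCs, 0.0382 at DE, 0.603 at PGT, 31.5 at PP and 135 at PH. Metallothioneins, which bind zinc and copper, went the other way. Over 9 names the family summed to 143 TPM in hESCs, 11.7 at DE, 9.24 at PGT and 8.24 at PP. The 6 at 10 TPM passed the filter in hESCs only, so that the filter alone favours lower values among them. All 6 were lower in PP, with a median log2 ratio of -3.19, beside 10.8% lower over all members. MT1X was at 66.7 TPM in hESCs, 6.87 at DE and 2.72 at PP, so the fall had already occurred in DE.

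Among 124 solute carriers at 10 TPM, 26 were lower and 14 higher, beside 10.8% and 16.3% over all members, with a median log2 ratio of -0.09. Median-ratio rescaling gave 33 lower and 9 higher, and leaving out structural RNAs gave 23 and 20 with a median of 0.07. The amino acid transporter SLC7A5 was at 227.6 TPM in hESCs, 185 at DE, 36.5 at PGT and 8.57 at PP, its partner chain SLC3A2 at 417, 169, 85.6 and 73, and the arginine and lysine transporter SLC7A3 at 94, 64.3, 25.5 and 7.2. All 3 were lower in PP. Collagens at 10 TPM numbered 21, of which 12 reached that level in hESCs and 20 in PP, so that the filter favours higher values among them. In PP 11 were higher and 3 lower, with a median of 1.06. Ribosomal protein genes numbered 83, with 77 within 2-fold, 6 lower and a median of -0.51, but 21 lower under median-ratio rescaling. Of 239 genes with ZNF names at 10 TPM, 146 reached that level in hESCs and 222 in PP, which favours higher values here too. Of these 239, 64 were higher and 13 lower, with a median of 0.51. Median-ratio rescaling gave 46 higher and 17 lower, and leaving out structural RNAs gave 85 and 10. The 4 HLA class I genes at 10 TPM were all within 2-fold in PP, and the family summed to 232 TPM in hESCs, 932 in PGT and 240 in PP.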
